A study of Mus musculus with 9 samples.

Results

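Endothelial cells line every blood vessel, and a set of genes for their junctions, surface proteins, receptors and transcription factors distinguishes them from the cells around them. Here 45 such genes were followed in capillaries cut from growing and adult bone, chosen by name as genes of endothelial identity and of bone vessel subtypes, out of 39179 genes listed in each library. They were read in 6 groups by role, with 14 genes of junction and surface, 5 of the angiopoietin and Tie system, 8 transcription factors, 5 arterial genes, 7 sinusoidal and venous genes and 6 genes of capillaries and type H vessels. The RNA was taken from single capillaries and the cells around them, cut by laser from the femoral ossification front (OF), the zone below the growth plate where vessels and new bone advance together. All mice carried the Tg(TIE2GFP)287Sato/J reporter on a C57BL/6 origin, in which Tie2 regulatory sequence drives GFP, and the fluorescence guided the cutting. Juvenile mice were 4 weeks old (n = 5 libraries) and adult mice 12 weeks old (n = 4 libraries), and the labels name no treatment or other allele for either group. Each library pooled many cut pieces, so it holds RNA of perivascular and marrow cells beside that of the endothelium, and fewer endothelial cells cannot be told apart from less RNA per cell.

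In long bone, type H capillaries are rich in endomucin (Emcn) and CD31 (Pecam1), run as columns towards the growth plate and lie next to osteoprogenitors, whereas type L vessels are the sinusoids of the marrow cavity with less of both proteins. VE-cadherin and claudin-5 seal the junctions between endothelial cells, the receptor Tie2 and its ligands set how quiescent or leaky a vessel is, and transcription factors of the ETS and SOXF families hold the endothelial programme. Arterial endothelium is marked by connexins and Ly6 proteins, and sinusoidal endothelium by stabilins and by the diaphragm protein Plvap. Bone growth slows between the ages compared, and the comparison asks which of these genes differed in RNA level between them.

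Totals ranged from 4856833 to 8077362 counts per library, so that the limit set by 3 counts lay between 0.371 and 0.618 CPM (counts scaled to library size), which covers counting error only. Of the 39 members that passed the filter on low counts, 36 had reads in every library, which a filter on these same counts favours. Juvenile 4 and juvenile 5 had 11 and 1 counts of Xist, against 2965 or more in the 7 other libraries. They had 2118 and 1823 counts of Y-linked genes, against 293 to 771. Both are juvenile, so sex-linked counts were not balanced between the ages, and the labels give no sex. The study's methods state that both sexes were analysed together. Adult 2 stood apart in neutrophil genes, with a summed level of 117 CPM for 12 genes against 3573 to 4559 CPM in the other adult libraries. For 12 genes of adipogenic stroma its sum was 769 CPM, against 1978 to 2436 CPM. Its megakaryocyte and platelet sum, 109 CPM, was above that of adult 3 (63.7 CPM). The summed level of 12 osteoblast genes was 172378 to 213800 CPM in juvenile and 63525 to 94003 CPM in adult libraries. Among the 39 members, juvenile 4 had the lowest juvenile value for 19 genes, and adult 2 and adult 3 each had the lowest adult value for 14.

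Promoter sequence was at hand for 22 of the 45 members (RefSeq, GRCm38.p6). The bases before the most upstream start site are shown for Ly6c1, the member with a called age difference among these 22, and for Emcn, the gene that defines type H vessels. They are also shown for Stab1, a sinusoidal gene without a called age difference, and for Tek, the gene of the Tie2 receptor that gives the reporter its name. Capitals mark GGAAG on either strand, a form of the GGAA core that ETS factors bind. Bases that the GENCODE gene model places inside the transcript were left out, which removed 11 bases from Emcn. Ly6c1 lies on the minus strand at chr15:75048838-75049087, Emcn on the plus strand at chr3:137340828-137341066, Stab1 on the minus strand at chr14:31168642-31168891 and Tek on the plus strand at chr4:94739039-94739288.
Ly6c1: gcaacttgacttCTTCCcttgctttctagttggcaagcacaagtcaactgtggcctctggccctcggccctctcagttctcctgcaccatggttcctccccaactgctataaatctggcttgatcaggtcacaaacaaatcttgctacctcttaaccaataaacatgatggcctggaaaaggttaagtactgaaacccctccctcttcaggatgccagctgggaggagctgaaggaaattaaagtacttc
Emcn: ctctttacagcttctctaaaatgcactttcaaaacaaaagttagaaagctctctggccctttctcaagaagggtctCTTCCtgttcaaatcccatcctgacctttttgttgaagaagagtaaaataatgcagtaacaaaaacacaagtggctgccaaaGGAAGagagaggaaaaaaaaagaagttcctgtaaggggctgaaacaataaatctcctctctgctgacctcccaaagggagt
Stab1: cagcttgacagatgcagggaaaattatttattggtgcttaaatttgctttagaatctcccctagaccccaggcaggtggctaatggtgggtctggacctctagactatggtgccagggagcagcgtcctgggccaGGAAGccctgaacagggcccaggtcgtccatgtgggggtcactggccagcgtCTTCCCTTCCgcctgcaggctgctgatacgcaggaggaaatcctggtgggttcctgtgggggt
Tek: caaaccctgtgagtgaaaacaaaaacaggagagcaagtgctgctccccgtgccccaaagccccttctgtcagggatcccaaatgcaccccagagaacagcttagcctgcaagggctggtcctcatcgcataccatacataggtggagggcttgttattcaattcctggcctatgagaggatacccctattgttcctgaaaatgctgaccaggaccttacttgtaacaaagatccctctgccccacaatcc
The Ly6c1 window held 1 GGAAG core, which began 238 bases before the start site. The Emcn window held 2, at 174 and 92 bases before the start site, counted with the 11 bases left out of the printed sequence. The Stab1 window held 3, at 115, 63 and 58 bases before its start site. The Tek window held no GGAAG on either strand, though it held the shorter GGAA, which was not counted. It held ACAAT, a short form of the SOX site, 2 times. Over the 250 bases before the start, 14 of the 22 members had at least 1 GGAAG core on either strand, which is 63.6% beside 63.7% of the 27025 genes with a window. ACAAT was found in 6 members, 27.3% beside 28.2% of all genes, and AGATAA, a form of the GATA site, in 1 member, Tal1, 4.55% beside 10.2%. Both strands were searched, matches of different motifs could overlap, and the share among the members was above that of all genes for none of the 3 motifs.

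Of the 45 members, 39 passed the filter and were tested with edgeR's quasi-likelihood test, with Benjamini-Hochberg adjustment over all 13418 genes. Levels are normalised read counts, that is counts scaled by library size with TMM factors, and each log2 fold change sets juvenile against adult, so that a negative value is a higher level in adult. At an adjusted p under 0.05, 5 members were higher in adult and 0 were higher in juvenile: Vcam1, Lmo2, Ly6c1, Plvap and Fabp4. This was 12.8% of the members tested, beside 1.89% of all genes called higher in adult and 1.99% called higher in juvenile. The members were chosen with earlier results of these data known, which such shares do not take into account. At an unadjusted p under 0.05 there were 12 members, all with a negative log2 fold change, beside 8.76% of all genes that passed with adult higher and 8.54% with juvenile higher, and the DESeq2 alternative called 10 higher in adult and 0 higher in juvenile. In the 7 libraries left without juvenile 4 and juvenile 5, whose Xist counts stood apart, 0 members were called, beside 0.223% of all genes higher in adult and 0.303% higher in juvenile. That fit kept 3 juvenile libraries, and no fit held sex as a covariate. Among the 5 genes called with all 9 libraries, its log2 fold changes ran from -2.64 for Vcam1 (adjusted p = 0.0761) to -0.81 for Plvap (adjusted p = 0.222). The log2 fold change was below 0 in 26 of the 39 and above 0 in 13, with a median of -0.30 beside -0.01 over all genes tested. In 6 members the normalised counts of the 2 ages did not overlap, each time with the adult values higher (15.4% of the members, beside 4.08% of all genes that did so with adult higher and 5.07% with juvenile higher). The called genes fell in 4 of the 6 groups, with 2 among the sinusoidal and venous genes, 1 among the transcription factors, 1 among the arterial genes and 1 among the capillary genes.

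**Figure D1:**
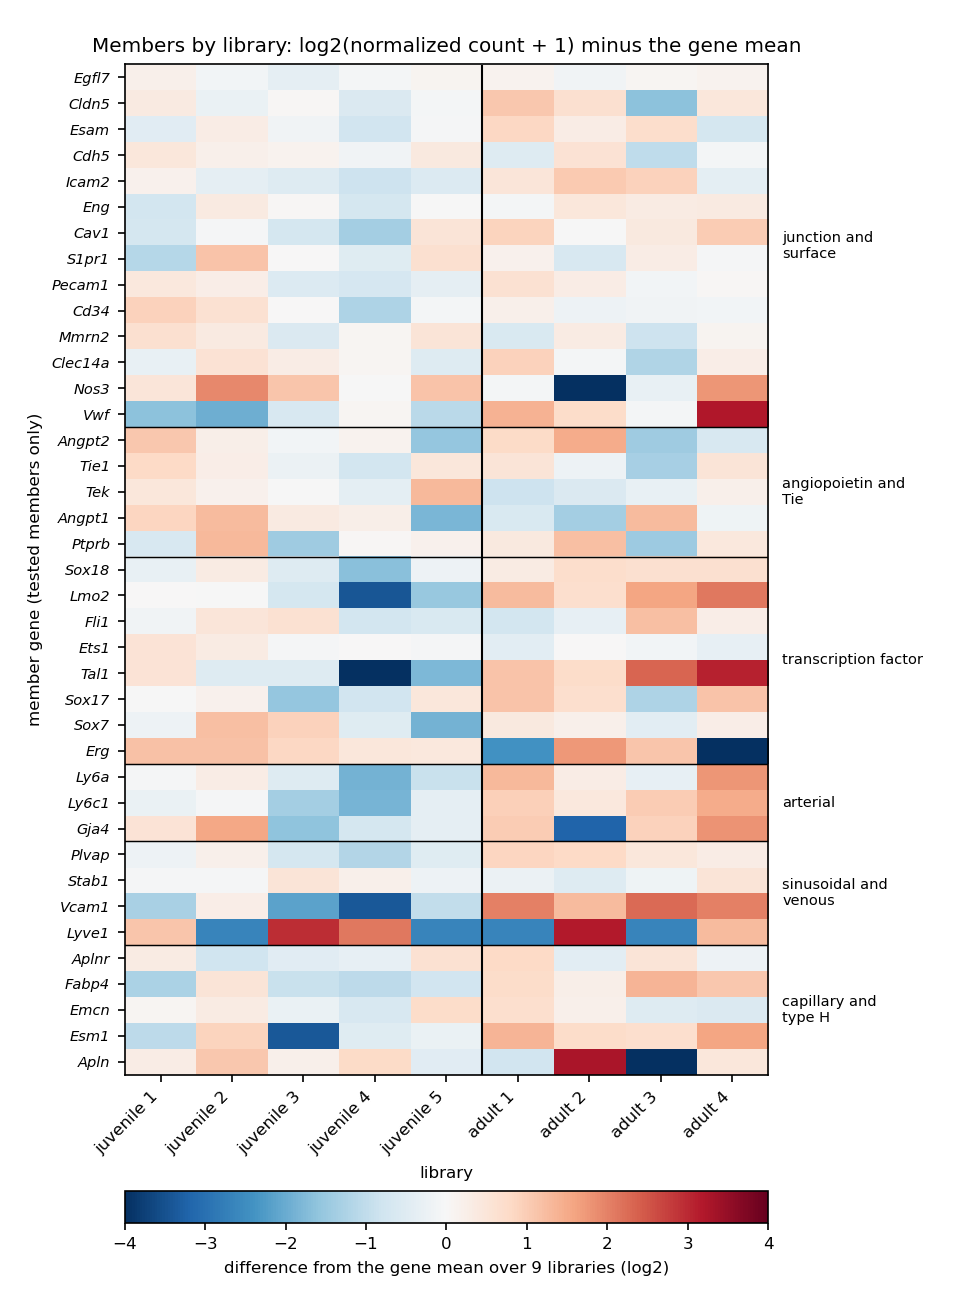
Tested members in rows, by role group and by level within it, against the 9 libraries in columns; colour is log2(normalised count + 1) minus the gene's mean over the libraries. The adult columns are higher for Vcam1, Lmo2, Ly6c1, Plvap and Tal1, and the row of Egfl7 is close to even.

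**Figure D2:**
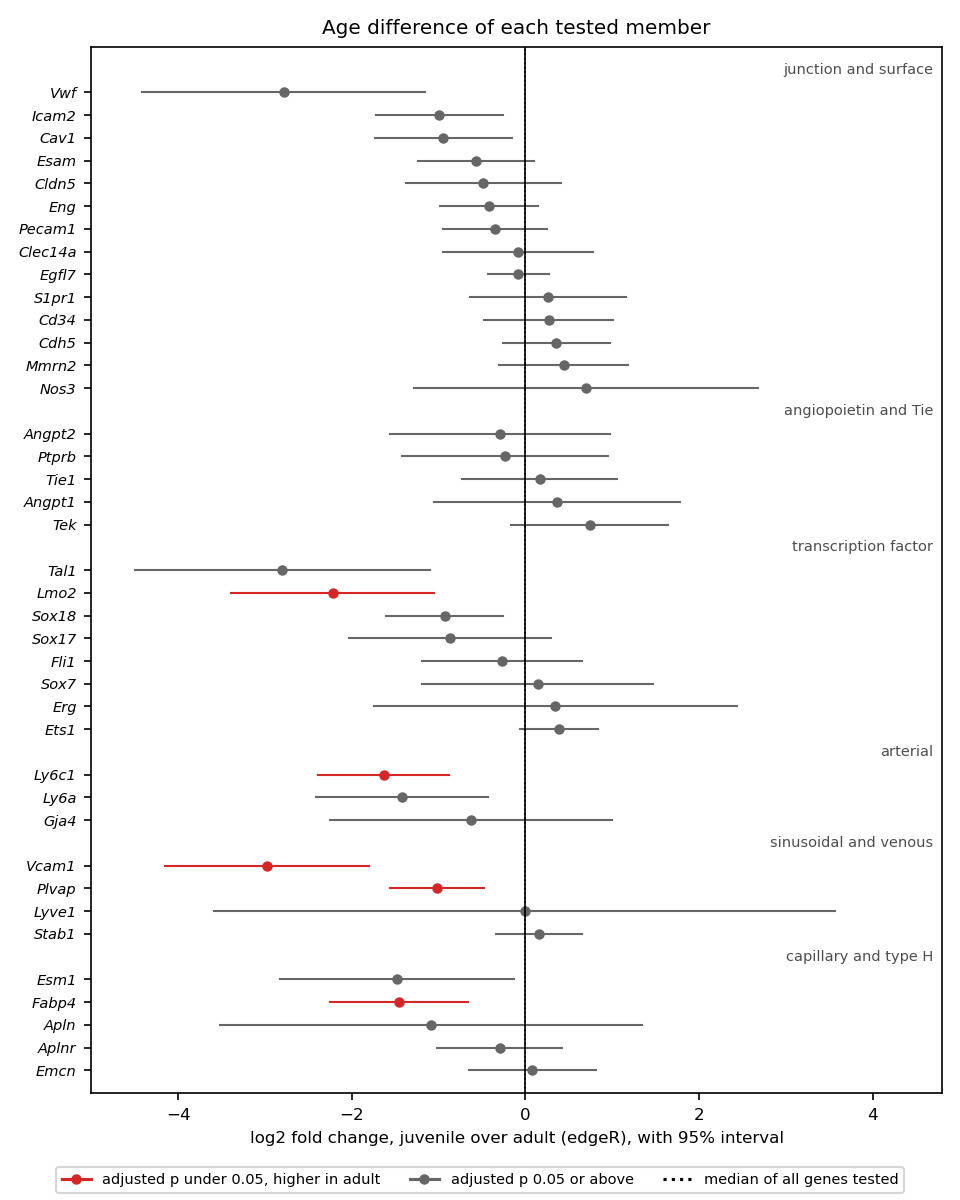
Log2 fold change of each of the 39 tested members, juvenile over adult, with its 95% interval, in the 6 role groups; red marks the 5 genes with an adjusted p under 0.05. Each red interval lies below 0, and the intervals of Egfl7 (-0.43 to 0.27), Stab1 (-0.34 to 0.65) and Ets1 (-0.06 to 0.84) are among the narrow ones that include it.

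The junction and surface genes gave 0 calls among 14 tested, and their summed level was 860 ± 152 CPM (SD, n = 5) for juvenile libraries, and 978 ± 96.5 CPM (SD, n = 4) for adult ones. Egfl7, a secreted protein of endothelial cells and the host gene of miR-126, had the highest level per length in the group. Its normalised counts were 1640, 1300, 1110, 1343 and 1539 in the juvenile libraries and 1554, 1270, 1489 and 1553 in the adult ones. The adult values lay inside the juvenile range, and the log2 fold change was -0.08 (SE 0.16, adjusted p = 0.877, 95% interval -0.43 to 0.27).

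Pecam1, which encodes CD31, was at 389 ± 136 (SD over the 5 juvenile libraries) and 496 ± 113 (SD over the 4 adult libraries), with a log2 fold change of -0.35 and an interval of -0.95 to 0.25. Cdh5, the gene of VE-cadherin, stood at 668 ± 102 and 522 ± 251, with an interval of -0.26 to 0.98. These are the core junction genes of the endothelium, and neither differed beyond the spread between libraries. Cldn5, the claudin of the tight junction, was at 298 ± 71.2 and 417 ± 234. Adult 3 held the lowest adult values of both Cdh5 (283) and Cldn5 (98.6), below all juvenile libraries. Esam, another adhesion molecule of the junction, had 417 ± 116 in juvenile and 617 ± 245 in adult libraries.

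Eng, a TGF-beta co-receptor, had 387 ± 125 and 517 ± 78.8 normalised counts, and Cd34, a surface sialomucin, 508 ± 248 and 422 ± 53.4. Mmrn2 and Clec14a, which bind each other at the endothelial surface, had levels of 275 ± 81.2 and 211 ± 63.3 in juvenile libraries and 203 ± 76.8 and 224 ± 123 in adult libraries. S1pr1, the receptor for sphingosine 1-phosphate, was at 299 ± 177 and 249 ± 64.4. The log2 fold changes of these 5 genes lay between -0.42 and 0.44, each with an interval that included 0. Nos3, the endothelial nitric oxide synthase, ranged from 63.6 to 249 in juvenile libraries and from 0 in adult 2 to 225 in adult 4. Its interval of -1.29 to 2.68 leaves the age difference undetermined, and its exons share 1040 bases with Gm15587 on the opposite strand, whose reads this library kit cannot tell apart. Exons of Sox17 (804 bases with Gm37587), Angpt1 (737 bases with Gm17473), Cd34 (148 bases with Gm16897), Vcam1 (61 bases with Gm43109) and Eng (61 bases with Fpgs) are shared with the opposite strand in the same way, and 264 bases of Egfl7 with Gm20532 on its own strand.

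In 3 junction and surface genes the unadjusted p was under 0.05 without a call. Icam2, an adhesion molecule for leukocytes, had 163 ± 46.3 normalised counts in juvenile and 324 ± 123 in adult libraries (log2 fold change -0.99, SE 0.34, adjusted p = 0.132). Cav1, the coat protein of caveolae, had 235 ± 121 and 452 ± 141 (log2 fold change -0.94, SE 0.37, adjusted p = 0.189). Vwf, the von Willebrand factor that endothelial cells and megakaryocytes both store, ranged from 9.04 to 40.1 in juvenile and from 35.7 to 360 in adult libraries (log2 fold change -2.78, SE 0.75, adjusted p = 0.0603). The highest value of Vwf was in adult 4, the library with the most Pf4, a platelet gene, at 12147 normalised counts. Without adult 4 the log2 fold change of Vwf was -1.74 (adjusted p = 0.271), and Vwf was called without adult 2 or without adult 3, down to an adjusted p of 0.0415.

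The 5 genes of the angiopoietin and Tie system gave 0 calls, with summed levels of 104 to 205 CPM in juvenile and 84.7 to 194 CPM in adult libraries. Angpt1, the ligand that activates Tie2 and comes mainly from perivascular cells, was at 115 ± 66.3 in juvenile and 89.8 ± 75.7 in adult libraries (SD, n = 5 and 4). Angpt2, the ligand that endothelial cells release and that can oppose Angpt1, had the highest level per length of the group. Its normalised counts were 347, 189, 151, 178 and 54.5 in the juvenile libraries and 275, 460, 59.8 and 105 in the adult ones. The highest and the second lowest of all 9 values were both adult, and the log2 fold change of -0.29 had an interval of -1.55 to 0.98.

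Tek, the gene of the Tie2 receptor, was at 188 ± 94.0 in juvenile and 113 ± 36.4 in adult libraries, the largest positive log2 fold change of the members (0.74, SE 0.42, adjusted p = 0.403, interval -0.16 to 1.65). Its partner receptor Tie1 was at 258 ± 101 and 230 ± 111. Ptprb, the phosphatase VE-PTP that removes phosphate from Tie2, was at 216 ± 154 and 255 ± 151. Tek is the gene named in the reporter strain, but its RNA in these mixed pieces does not measure how much reporter-marked endothelium was cut. Its level did not differ between the ages beyond the spread, and its interval leaves room for a higher juvenile level.

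Among the 8 transcription factors 1 was called. Lmo2, a bridging protein in complexes with Tal1 that blood and endothelial cells share (chr2:103957986-103981878, plus strand), had normalised counts of 173, 171, 106, 15.3 and 59.9 in the juvenile libraries and of 419, 277, 517 and 750 in the adult ones. The lowest adult value lay above the highest juvenile one. The fitted level was 4.66-fold higher in adult (log2 fold change -2.22, SE 0.54, adjusted p = 0.0392). The call was lost without juvenile 3, juvenile 5, adult 3 or adult 4, with adjusted p-values over the 9 fits that left out 1 library between 0.0299 and 0.104.

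Tal1, the basic helix-loop-helix factor that works with Lmo2, did not overlap between the ages either, with 100.1, 47.0, 46.7, 1.18 and 18.6 in the juvenile libraries and 149, 113, 348 and 584 in the adult ones. Its log2 fold change of -2.80 (SE 0.79) had an adjusted p of 0.0698 and was not called. Sox18, a SOXF factor with roles in arteries and lymphatics, had 403, 617, 345, 153 and 428 against 620, 807, 770 and 772. Juvenile 2 and adult 1 are neighbours here at 617 and 620, so that the separation rests on a small gap, and the log2 fold change was -0.93 (SE 0.31, adjusted p = 0.12). The DESeq2 alternative called both Tal1 and Sox18.

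Sox17, the SOXF factor of arteries, was at 93.8 ± 44.3 (SD, n = 5) and 171 ± 90.4 (SD, n = 4), and Sox7, the third SOXF factor, at 87.1 ± 62.5 and 78.9 ± 17.5. Ets1, Fli1 and Erg are ETS factors of the endothelium. Ets1 had 604 ± 117 and 461 ± 66.1 (log2 fold change 0.39, interval -0.06 to 0.84), and Fli1 had 215 ± 90.1 and 259 ± 160. Erg ranged from 53.2 to 89.9 in the juvenile libraries, whereas the adult libraries held 6.53 in adult 1, 133 in adult 2, 85.4 in adult 3 and 0.786 in adult 4. The interval of Erg, -1.75 to 2.44, is accordingly wide.

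**Figure D3:**
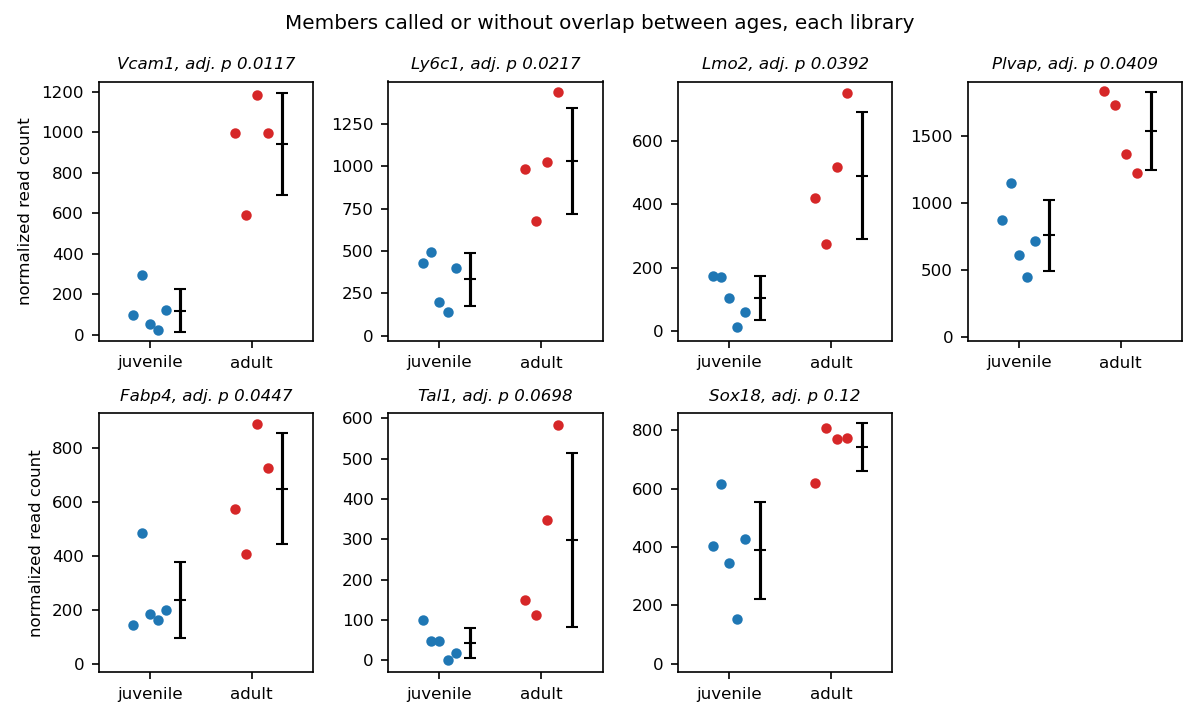
Normalised read counts of the 5 called members and of Tal1 and Sox18, the members not called whose ages did not overlap; each point is 1 library, bars are the mean and SD, and adjusted p-values are from edgeR. The adult points lie above all juvenile points in each panel other than that of Fabp4, where juvenile 2 (486) is above adult 2 (407).

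Of the 5 arterial genes 3 were tested and 1 was called. Ly6c1, a small GPI-anchored protein of arterial and capillary endothelium whose promoter is printed above (gene at chr15:75044018-75048830, minus strand), had 427, 495, 199, 140 and 399 normalised counts in the juvenile libraries. The adult libraries had 983, 679, 1023 and 1434, all of them above the juvenile values. The level was 3.10-fold higher in adult (log2 fold change -1.63, SE 0.35, adjusted p = 0.0217), and the call was lost without juvenile 3, juvenile 5 or adult 4 (adjusted p 0.0165 to 0.0597 with 1 library left out). Its near-identical neighbour Ly6c2, which marks monocytes and neutrophils, was at 0 to 34.4 in juvenile and 71.3 to 929 in adult libraries, and how the counting divided reads between the pair is not given in the sources used here. In adult 4, the library with the most Ly6c1, Ly6c2 was at 393, and in adult 1 at 929.

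Ly6a, which encodes Sca-1 and is also found on haematopoietic stem cells and some stromal cells, had the highest level per length of the arterial genes. It stood at 378, 473, 274, 105 and 208 in the juvenile libraries and at 958, 479, 306 and 1337 in the adult ones. The groups overlapped, adult 3 being below juvenile 1 and juvenile 2, and the log2 fold change of -1.42 (SE 0.46) had an adjusted p of 0.108. Gja4, the gap junction protein connexin 37, ranged from 42.7 to 391 in juvenile libraries and from 13.6 in adult 2 to 472 in adult 4, with an interval of -2.25 to 0.998. Gja5, connexin 40, had 0 to 15 raw counts and Bmx, a kinase of arterial endothelium, 0 to 32 raw counts per library, and neither passed the filter.

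Among the sinusoidal and venous genes 4 of 7 were tested and 2, Vcam1 and Plvap, were called. The summed level of the 7, which includes both called genes, was 286 ± 50.6 CPM (SD, n = 5) for juvenile libraries, and 527 ± 39.8 CPM (SD, n = 4) for adult ones. Vcam1, the adhesion molecule that sinusoidal endothelium, macrophages and stromal cells of the marrow carry (chr3:116109949-116129688, minus strand), had 99.0, 297, 54.8, 22.4 and 122 normalised counts in the juvenile libraries. The adult libraries had 994, 589, 1185 and 994, so that the lowest of them was above the highest juvenile value. Vcam1 showed the largest age difference of the members, 7.84-fold higher in adult (log2 fold change -2.97, SE 0.54, adjusted p = 0.0117). It was called in each of the 9 fits that left out 1 library, with an adjusted p of 0.0029 to 0.0364.

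Plvap, the diaphragm protein of fenestrated and sinusoidal endothelium (chr8:71497765-71511752, minus strand), had the highest level per length of all 45 members in the mean over the 9 libraries. Its normalised counts were 873, 1147, 612, 448 and 718 in the juvenile libraries and 1839, 1732, 1367 and 1228 in the adult ones, without overlap. The level was 2.03-fold higher in adult (log2 fold change -1.02, SE 0.25, adjusted p = 0.0409). With 1 library left out, the log2 fold change stayed between -1.22 and -0.88 and the adjusted p between 0.0211 and 0.103, and the call held without juvenile 2 or adult 4 but was lost without any of the 7 others.

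Stab1, the scavenger receptor stabilin-1 of sinusoids and macrophages, ranged from 721 to 1170 in juvenile and from 583 to 1170 in adult libraries (log2 fold change 0.16, SE 0.23, adjusted p = 0.813, interval -0.34 to 0.65). Its exons share 112 bases with Nt5dc2 on the other strand. Lyve1, the hyaluronan receptor of lymphatic and some sinusoidal endothelium, was at 0 in juvenile 2, juvenile 5, adult 1 and adult 3, and reached 48.1 in juvenile 3 and 55.6 in adult 2. Stab2, the second stabilin, had 0 to 27 raw counts, Sele, the endothelial selectin, 0 to 7 and Selp, the selectin that endothelium shares with platelets, 0 to 40, the 40 of them in adult 4. These 3 genes did not pass the filter, and no age difference was detectable at this depth.

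Of the 6 capillary and type H genes 5 were tested and 1 was called. Emcn, the marker that defines type H vessels, had 364, 438, 289, 219 and 573 normalised counts in the juvenile libraries and 556, 397, 240 and 230 in the adult ones. The ages overlapped throughout, and the log2 fold change was 0.08 (SE 0.34, adjusted p = 0.95), with an interval of -0.65 to 0.82. Together with Pecam1, whose interval ran from -0.95 to 0.25, the genes of both proteins that define type H vessels showed no age difference beyond the spread between libraries, while the width of these intervals leaves room for a difference in either direction.

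Fabp4, a fatty acid binding protein of capillary endothelium and of adipocytes (chr3:10204088-10208576, minus strand), had 143, 486, 186, 165 and 202 normalised counts in the juvenile and 575, 407, 888 and 725 in the adult libraries. Juvenile 2 was above adult 2, and the other juvenile libraries were below all adult ones. The level was 2.74-fold higher in adult (log2 fold change -1.45, SE 0.37, adjusted p = 0.0447). With 1 library left out the adjusted p ran from 0.00734 without juvenile 2 to 0.119 without juvenile 4, and the call was kept in 2 of the 9 fits, those without juvenile 2 or adult 2.

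Aplnr, the apelin receptor, had the highest level per length of the capillary genes. It stood at 536, 245, 313, 339 and 649 in the juvenile and at 741, 323, 609 and 369 in the adult libraries, which overlapped (log2 fold change -0.30, interval -1.02 to 0.43). Apln, its ligand and a gene of sprouting tip cells, ranged from 19.95 to 59.7 in juvenile libraries, and in adult libraries was at 15.96, 278, 0 and 38.5. Esm1, a proteoglycan of tip cells, had 73.8 ± 61.7 (SD, n = 5) and 207 ± 65.9 (SD, n = 4), with a log2 fold change of -1.48 (SE 0.62, adjusted p = 0.232). Mfsd2a, a lipid transporter of the blood-brain barrier, had 1 read in all, in juvenile 5.

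**Figure D4:**
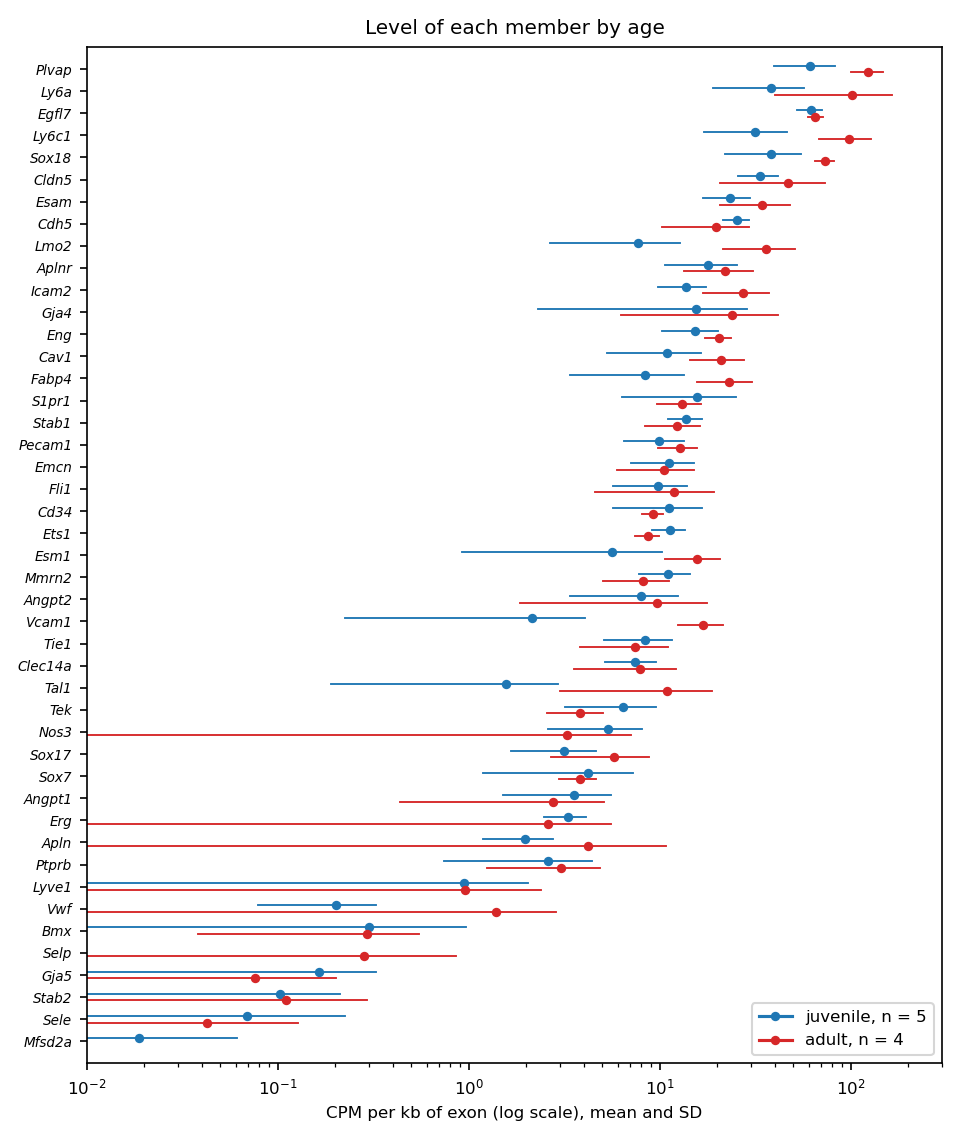
Level of all 45 members in CPM per kb of exon on a log scale, mean and SD for juvenile (n = 5) and adult (n = 4) libraries, ordered by the mean over all libraries; bars are cut at the left edge where the SD exceeds the mean. Plvap is first by this mean, at 60.9 in juvenile and 124 in adult libraries, and the 6 members that were not tested are at the bottom.

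Per length of exon, the members spanned a wide range. Plvap had the highest mean level over the 9 libraries, 88.8 CPM per kb of exon, followed by Ly6a (66.4), Egfl7 (63.3), Ly6c1 (61.0) and Sox18 (53.7). In juvenile libraries Egfl7, at 61.7 ± 9.26 CPM per kb (SD, n = 5), stood beside Plvap at 60.9 ± 21.4, a difference smaller than the spread. In the mean of the adult libraries Plvap at 124 ± 23.3 (SD, n = 4), Ly6a at 102 ± 61.9 and Ly6c1 at 97.8 ± 29.4 lay above Egfl7 at 65.2 ± 5.97. For Ly6a that difference was smaller than the spread. Cldn5 (39.5), Esam (28.1), Cdh5 (22.9) and Lmo2 (20.3) came next. Emcn at 10.8 lay beside Pecam1 at 11.2, and the receptors Tie1 (7.95) and Tek (5.23) and the factor Erg (2.98) lay below. Vwf was low at 0.732 CPM per kb. Each of the 6 members not tested was at 0.296 CPM per kb or less.

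The wider endothelial programme was read from 34 further endothelial genes, listed for their cell type, though with earlier results of these data known. All 34 were tested and their median log2 fold change was -0.12, with 14 genes above 0 and 20 below. None of the 34 was called higher in adult by edgeR, beside 1.89% of all genes. An unadjusted p under 0.05 was found for 6 in either direction, beside 8.76% of all genes with adult higher and 8.54% with juvenile higher. The DESeq2 alternative called 2 higher in adult, Tmem204 and Fgd5, beside 4.9% of all genes. Heg1, a junction receptor, was the 1 gene of the list called higher in juvenile, beside 1.99% of all genes. It had 1328, 1872, 1090, 1184 and 1155 normalised counts in the juvenile and 738, 767, 688 and 501 in the adult libraries. These did not overlap (log2 fold change 0.98, SE 0.21, adjusted p = 0.0217), and the call was lost without adult 3 (adjusted p = 0.0551) or adult 4 (adjusted p = 0.0584). The VEGF receptors, whose signal drives vessel growth into the growth plate, had log2 fold changes of -0.04 for Kdr (VEGFR2), -0.24 for Flt1 (VEGFR1) and 0.49 for Flt4 (VEGFR3), none of them called. The summed level of the list was 1629 ± 270 CPM (SD, n = 5) for juvenile libraries, and 1700 ± 125 CPM (SD, n = 4) for adult ones.

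Because the pieces hold a varying share of endothelium, the libraries were also scaled to the geometric mean of 33 of these 34 genes, so that a member is compared per unit of other endothelial RNA. On this scale 4 members were higher in adult and 0 in juvenile, beside 0.961% of all genes higher in adult and 1.02% higher in juvenile. Vcam1 (log2 fold change -3.07, adjusted p = 0.00784), Ly6c1 (-1.69, adjusted p = 0.0161), Lmo2 (-2.29, adjusted p = 0.0342) and Plvap (-1.03, adjusted p = 0.0496) were called. Fabp4 was not, at -1.49 with an adjusted p of 0.0695. Under DESeq2 with its default settings, 10 members were higher in adult, beside 4.9% of all genes higher in adult and 4.57% higher in juvenile. They were the 5 called by edgeR with Vwf, Icam2, Sox18, Tal1 and Ly6a. Among genes with at least 10 counts in every library, 7 members were higher in adult, beside 3.38% of all genes higher in adult and 3.19% higher in juvenile. With limma voom 6 were, beside 1.85% and 1.58%.

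Several of the members that were higher in adult are also expressed by blood and stromal cells, whose markers moved with age in these libraries. Of 12 erythroid genes, 11 were called higher in adult, with a summed level of 430 to 2556 CPM in juvenile and 4828 to 37394 CPM in adult libraries, and none was at 0 in all libraries of either age. Klf1, an erythroid factor, was at 0 to 18.9 in juvenile libraries and at 0, 510, 495 and 1435 in the adult ones. Adult 3 and adult 4, the libraries with the most erythroid RNA, also had the most Lmo2 and Tal1. Without adult 4 the log2 fold change of Lmo2 was -1.96 (adjusted p = 0.0939) and that of Tal1 -2.26 (adjusted p = 0.185). Of 12 megakaryocyte and platelet genes 4 were tested and 1, Pf4, was called higher in adult. Their sum was 13.5 to 28.8 CPM in juvenile and 63.7 to 4534 CPM in adult libraries, and Gp1ba, Gp9, Gp6, Tubb1 and Treml1 had no reads in juvenile libraries. The part of these cells in the differences of Lmo2, Tal1 and Vwf was not tested.

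Vcam1 and Fabp4 moved beside stromal and macrophage genes. Among 12 genes of adipogenic stroma 3 were called higher in adult, Cxcl12, Apoe and Gas6, and 1 higher in juvenile, the leptin receptor gene Lepr, and the sum was 563 to 682 CPM in juvenile and 769 to 2436 CPM in adult libraries. Cxcl12, a chemokine of marrow stroma, ran from 422 to 948 normalised counts in juvenile libraries and was 4047, 1206, 4240 and 5463 in the adult ones, so that adult 2 was the lowest adult library for Cxcl12 and for Vcam1 (589) alike. Adipoq, the defining adipocyte gene, was at 0 to 23.9 in juvenile and 11.5 to 79.2 in adult libraries. Of 12 macrophage genes 9 were tested and 1, Csf1r, was called higher in adult. The sum of the list was 559 to 845 CPM in juvenile and 1019 to 1702 CPM in adult libraries, and Vsig4 and Cd5l had no reads. Without adult 2 the number of members called higher in adult was 6, and Vcam1 was among them. The part of these cells in the differences of Vcam1 and Fabp4 was not tested.

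Ly6c1 moved beside genes of myeloid cells and progenitors. Of 12 neutrophil genes 11 were tested and 9 were called higher in adult, with sums of 25.5 to 86.9 CPM in juvenile and 117 to 4559 CPM in adult libraries, and the defining gene Ly6g was at 0 in every library other than adult 3, which had 19 raw counts. In adult 2, where the neutrophil sum was 117 CPM, Ly6c1 was at 679, the lowest adult value and above all juvenile libraries. Ly6c2 also had its lowest adult value there, at 71.3. Of 10 haematopoietic progenitor genes 9 were tested and 2, Myb and Ptprc, were called higher in adult, with sums of 97.6 to 147 and 217 to 327 CPM. Of 12 mural cell genes 9 were tested and 0 called, with sums of 426 to 702 and 402 to 766 CPM, and of 10 B cell genes 7 were tested and 0 called, with sums of 39.2 to 75.1 and 24.9 to 236 CPM. The part of these cells in the differences of Ly6c1 and Plvap was not tested.

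**Figure D5:**
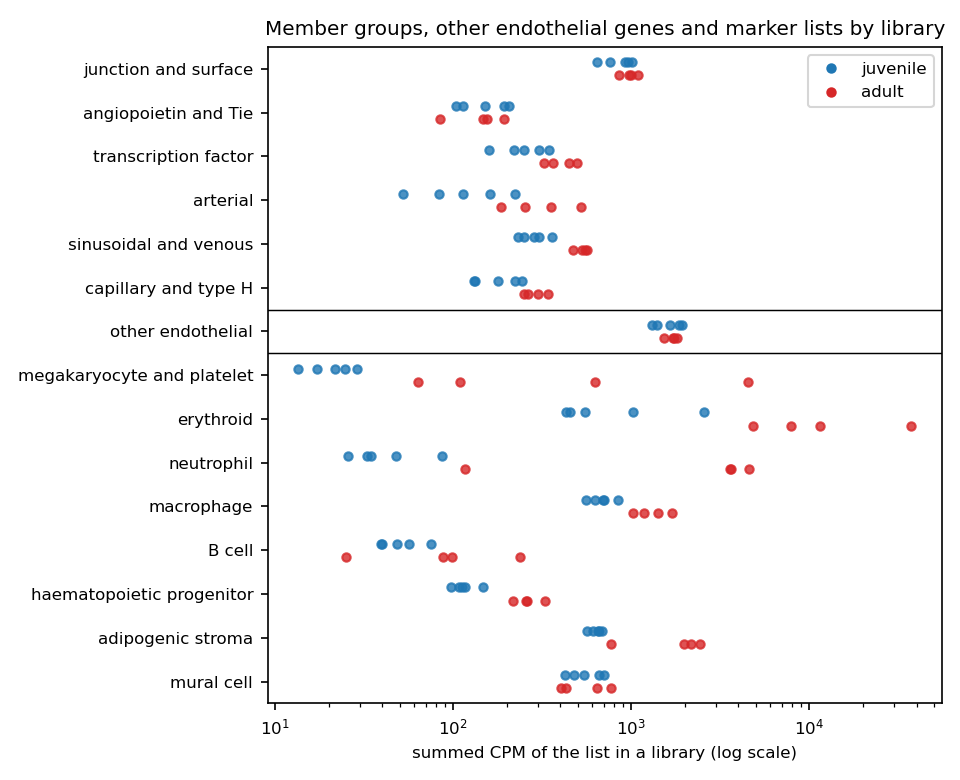
Summed CPM of each member group, of the 34 other endothelial genes and of 8 marker lists, 1 point per library on a log scale. The ages overlap for junction and surface genes, for the angiopoietin and Tie system and for the other endothelial genes (1314 to 1925 CPM in juvenile, 1523 to 1817 CPM in adult). The ages do not overlap for the erythroid, neutrophil, macrophage, adipogenic stroma, progenitor and megakaryocyte markers. Nor do the sums of sinusoidal and venous genes (230 to 360 against 472 to 563 CPM) or of capillary and type H genes (132 to 243 against 249 to 339 CPM). The first of these 2 sums holds the called Vcam1 and Plvap, whereas Stab1 had mean normalised counts of 889 in juvenile and 796 in adult libraries. The second holds the called Fabp4, whereas Emcn was at 377 and 356, and 0 of its 5 tested genes were without overlap.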

How the data were processed

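Each library was deposited by the authors as whole-number counts per Ensembl gene, without normalization. Per the labels and the study's methods, poly-A cDNA was made with a SMART-Seq v4 kit, which does not mark strand, and paired reads were mapped to mm10 (GRCm38). The submitters' processing notes name TopHat2, Bowtie2 and featureCounts; versions, strand setting and annotation release are not given in the sources used here. Symbols, positions and exon lengths were taken from GENCODE M21 (GRCm38). Ages were compared with edgeR 4.0.16 in R 4.3.3 (filterByExpr defaults, TMM, quasi-likelihood F test, no covariates), and p-values were adjusted over 13418 genes. A member was called at an adjusted p under 0.05. Normalised counts are counts divided by the TMM-scaled library size, itself set against its geometric mean over libraries. The scripts were tested on simulated data. DESeq2 1.42.0, limma 3.58.1 and other alternatives were run. The study speaks of different mice, but the labels tie no library to a mouse, so p-values measure the spread between these libraries. All members were named; values by library were given for those called, those without overlap and the highest per length in each group. The members and lists were chosen with earlier results of these data known.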

Additional observations from a re-analysis of the deposited data

Results flagged for a closer look

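In 78 groups of values, 1 per tested member and age, 2 libraries stood far from the others of their age, where chance alone would set apart about 3.9. Apln, the apelin ligand, was at 278 normalised counts in adult 2 against 0 to 38.5 in the other adult libraries. Adult 2 was also the adult library with the least neutrophil and stromal RNA. Fabp4 was at 486 in juvenile 2 against 143 to 202 in the other juvenile libraries, which makes it the member called higher in adult whose ages overlapped.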

How the results depend on the processing

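Over 11 alternatives and 9 fits that each left out 1 library, no member was called higher in juvenile, and 28 of the 39 tested members kept 1 direction. The other 11 had the opposite sign in 37 of 774 values, and none of those 37 was called, nor was the main value of any of these members. The number of members called higher in adult was 5, and between 1 and 6 with 1 library left out. It was 10 with DESeq2's default settings, 7 among genes with at least 10 counts in every library, 6 with limma voom and 4 scaled to the other endothelial genes. It was 0 when juvenile 4 and juvenile 5, which have hardly any Xist counts, were left out, a fit with 3 juvenile libraries whose calls over all 13876 genes were 31 with adult higher and 42 with juvenile higher. Over all genes, DESeq2 called 719 of 15726 higher in juvenile and 771 higher in adult against 267 and 253 of 13418, the fit with at least 10 counts 314 and 333 of 9847, and limma voom 212 and 248 of 13418. The count of other endothelial genes called higher in juvenile was 1, and 0 to 1 with 1 library left out, 0 when scaled to that list and 0 without juvenile 4 and juvenile 5. The scale set to the list comes from 33 of its own 34 genes, so the 0 found there is no separate check of the list. The count of other endothelial genes higher in adult was 0, and 1 with at least 10 counts in every library (Tmem204) and 2 with DESeq2.

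Since mice were killed at 1 age or the other, the same replicate number marks different mice at the 2 ages. Same-numbered libraries did not deviate together (correlations -0.03 to 0.03). With a replicate block, 0 members were called higher in adult and 0 other endothelial genes higher in juvenile, and over all genes 53 were called higher in juvenile and 36 higher in adult. For the 5 members called without it, the adjusted p under the block lay between 0.0628 (Plvap) and 0.221 (Lmo2).

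Depth limits Gja5, Bmx, Stab2, Sele, Selp and Mfsd2a, whose counts were too low to test. With 5 and 4 libraries of low input, changes near 2-fold can be missed.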
